A study of Mus musculus with 10 samples.

Results

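The genes described here are 10 transcripts that mark fetal liver, liver progenitors and bile duct cells, or liver tumours: Afp, H19, Igf2, Gpc3, Ly6d, Sox4, Sox9, Cd24a, Spp1 and Epcam. They were found by symbol among the 53392 genes of the deposited count table, through the GENCODE M21 annotation of the mouse genome, and each symbol matched 1 row. RNA was sequenced from whole livers of Fbp1-deleted mice (n = 5, replicates 6 to 10) and of wild-type (WT) mice (n = 5, replicates 1 to 5), all on a C57BL/6 background and 24 weeks old. The labels describe the deletion as hepatic; what drove it, the sex of the mice and their feeding state were not stated. FBP1, fructose bisphosphatase, is the gluconeogenic enzyme that takes a phosphate from fructose bisphosphate. The comparison asks whether livers without it carried more or less RNA of these markers.

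Most of these genes are active in the liver bud and are turned down after birth. AFP, the fetal counterpart of serum albumin, H19, a long noncoding RNA of the maternal chromosome, and IGF2, a growth factor made from the paternal one, belong to this group, and H19 and Igf2 share enhancers and an imprinting control region. GPC3, a cell surface proteoglycan, is used with AFP as a marker of human hepatocellular carcinoma. In the adult liver SOX9, SOX4, EPCAM and osteopontin (the product of Spp1) belong to bile duct and ductular cells rather than to hepatocytes, and CD24 and LY6D are small proteins held on the cell surface by a lipid anchor, known from progenitors, B cell precursors and squamous epithelium.

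The promoters of Afp and Sox4 are printed first, Afp because the transcription factors that act on it are described below and Sox4 because it was the member that fell. RefSeq (GRCm38.p6) held promoters for 6 of the 10 members, namely Afp, Igf2, Gpc3, Sox4, Spp1 and Epcam. Each line gives the 250 bases before the RefSeq start, 5′ to 3′ on the gene's strand, at chr5:90490464-90490713 (plus strand) for Afp and at chr13:28953700-28953949 (minus strand) for Sox4. Capitals mark matches to 6 motifs searched on both strands: the TATA box (TATAAA), the CCAAT box (CCAAT, which reads ATTGG on the other strand), and sequences bound by HNF1 (a longer motif, written out in capitals in the Afp line), C/EBP (TTGCNNAA), FOXA (TGTTTAC) and TEAD (GGAATG).
Afp: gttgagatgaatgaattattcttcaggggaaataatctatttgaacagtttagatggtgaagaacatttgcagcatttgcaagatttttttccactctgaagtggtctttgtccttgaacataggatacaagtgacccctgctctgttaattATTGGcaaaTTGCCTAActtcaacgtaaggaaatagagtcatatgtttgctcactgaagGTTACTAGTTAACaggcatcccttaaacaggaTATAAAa
Sox4: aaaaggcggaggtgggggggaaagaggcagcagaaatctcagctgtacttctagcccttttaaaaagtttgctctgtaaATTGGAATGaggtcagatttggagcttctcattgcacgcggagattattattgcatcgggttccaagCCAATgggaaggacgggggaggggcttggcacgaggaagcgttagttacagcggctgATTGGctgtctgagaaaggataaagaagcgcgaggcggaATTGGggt

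The Afp window held 4 matches: a CCAAT box at -98 to -94, a C/EBP sequence at -89 to -82, an HNF1 sequence at -39 to -27 and a TATA box at -7 to -2, counted back from the RefSeq start. None of them overlapped. GENCODE M21 starts Afp at chr5:90490737, past the end of the window, so the distances to that start are larger. Of 32851 mouse promoter windows of the same length, 0.0822% held the HNF1 letters, 9.56% the C/EBP letters, 12.4% the TATA box and 33.8% a CCAAT box. The Sox4 window held 4 CCAAT boxes, a number reached by 0.84% of the windows, and 1 TEAD sequence, found in 12.6%. That TEAD sequence, at -168 to -163, overlapped the CCAAT box farthest from the start. GENCODE M21 starts Sox4 at chr13:28953713, inside the window, so the CCAAT box at -8 to -4 lies within the gene as annotated there. The FOXA letters, found in 3.17% of windows, did not occur in either. A match describes letters, not a bound site.

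The 10 libraries held between 17778395 and 23894812 estimated counts, and 15392 genes passed the filter on low counts and were tested. In Fbp1-deleted livers Fbp1 itself was between 7.38 and 13.4 counts-per-million (CPM, per TMM-scaled library), against 778 to 1050 CPM in WT livers. All 18 hepatocyte genes looked up were tested in these libraries, with Alb between 59800 and 67000 CPM in Fbp1-deleted livers and between 32800 and 71100 CPM in WT livers, so the tissue label held. On the first principal component, which carried 37.6% of the variance, Fbp1-deleted replicate 8 scored 6.4, nearer to WT than the other Fbp1-deleted libraries (35.3 to 54.5), while WT libraries scored -46.6 to -18.2. Member results that turn on replicate 8, and counts over lists that move with it, are given with and without it.

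All 10 members passed the filter. By edgeR's quasi-likelihood test with Benjamini-Hochberg adjustment over all genes tested, Ly6d rose, Sox4 fell and the other 8 members did not pass the threshold of 0.05 (adjusted p 0.084 to 0.95). Of all genes tested 20.6% were called, 1636 higher and 1542 lower, so the share of members called, 2 of 10, was near the background. The groups failed to overlap for 2 members, Ly6d and Sox4, where 13.5% of all genes did. The fitted log2 change (Fbp1-deleted minus WT) was positive for 3 members and negative for 7, with a median of -0.57 against 0.0093 over all genes tested. Among the 6315 tested genes within the members' range of average level, 16.7% were called, and falls (639) outnumbered rises (418). At an unadjusted p under 0.05 the count was 6 of the members, against 34.6% of all genes tested. The members were scarce transcripts, together between 0.00194% and 0.00418% of a library's counts.

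**Figure D1:**
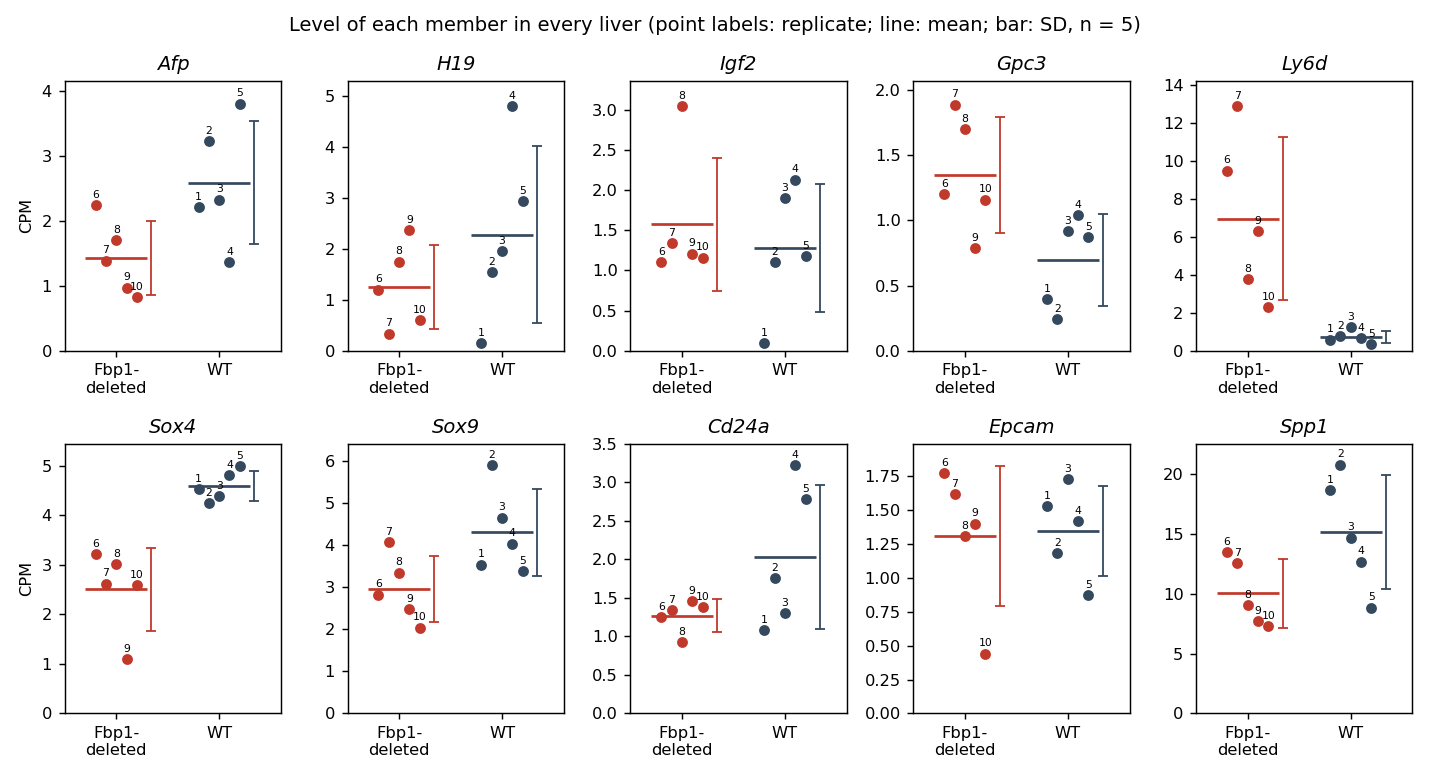
Level of each of the 10 members in CPM (vertical axis) in every Fbp1-deleted liver (left, red) and WT liver (right, dark), with point labels giving the replicate, lines the group mean and bars the SD (n = 5). The groups are apart for Ly6d, where the lowest Fbp1-deleted liver was at 2.31 CPM and the highest WT liver at 1.25 CPM, and for Sox4, where the highest Fbp1-deleted liver was at 3.21 CPM and the lowest WT liver at 4.25 CPM.

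Ly6d (ENSMUSG00000034634.7, chr15:74762056-74763620, minus strand, GRCm38), which encodes a lipid-anchored surface protein of keratinocytes and of lymphoid progenitors bound for the B cell lineage, was the member that rose. It stood at 9.48, 12.9, 3.78, 6.31 and 2.31 CPM in Fbp1-deleted replicates 6 to 10, against 0.59, 0.776, 1.25, 0.656 and 0.36 CPM in WT replicates 1 to 5. Every Fbp1-deleted liver was above every WT liver, and within the Fbp1-deleted group replicates 6 and 7 were high and replicates 8 and 10 low. The means were 6.95 ± 4.28 CPM in Fbp1-deleted livers and 0.726 ± 0.328 CPM in WT livers (SD, n = 5 each), a log2 change of 3.25 (SE 0.48) and 9.53-fold in the fit (edgeR adjusted p = 0.00105). The exact two-sided permutation test on log2(CPM + 1) gave p = 0.00794, the smallest value that 5 against 5 libraries allow. Among the genes tested, the Ly6d change ranked 29 from the top, and 27 genes called as higher had a larger one. Leaving out replicate 8 gave a log2 change of 3.41. Raw estimated counts were 198, 231, 78, 104 and 42 in the Fbp1-deleted livers and 12, 19, 23, 12 and 7 in the WT livers. The coefficient of variation among Fbp1-deleted livers was 61.6%, where counting error alone would give 8.75%; among WT livers it was 45.2%, where counting error would give 26.2%.

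Because LY6D is known from squamous epithelium and from B cell precursors, markers of both were read in the same libraries. Of 6 squamous markers, 1 passed the filter (Sfn, log2 change -0.20, adjusted p = 0.65), and Krt13, a keratin of mucosal squamous epithelium, had 0 counts in all libraries. The keratins of basal epidermis, Krt5, Krt14 and Krt6a, were below the filter but not evenly spread. In the edgeR fit with no filter their adjusted p were 0.000107 (Krt5), 0.00636 (Krt14) and 0.000284 (Krt6a). Their summed counts were 81, 60, 42, 86 and 2 in Fbp1-deleted replicates 6 to 10, against 0, 2, 2, 1 and 4 in WT replicates 1 to 5. Thus 4 Fbp1-deleted livers carried basal keratin counts far above those of any WT liver, and Fbp1-deleted replicate 10 did not. Krt14, for example, had 40, 29, 17, 39 and 0 counts in the Fbp1-deleted livers and 0, 0, 1, 0 and 1 counts in the WT livers. In replicate 10, where the sum of these 3 keratins was within the WT range, Ly6d stood at 2.31 CPM (42 counts). That was the lowest Fbp1-deleted value, and it was above the 1.25 CPM of the highest WT liver. Krt17, a further keratin described under other observations, had 2 counts in replicate 10 and at most 1 in a WT liver. Summed over the 6 squamous markers, levels were between 0.882 and 6.43 CPM in Fbp1-deleted livers and between 1.14 and 2.01 CPM in WT livers. Sfn alone was between 0.772 and 1.53 CPM in Fbp1-deleted livers and between 1.02 and 1.8 CPM in WT livers. It made up most of the sum in each WT liver and in Fbp1-deleted replicate 10. The part of these cells in the Ly6d difference was not tested.

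B cell markers moved the other way from Ly6d. Of 7 markers, 6 passed the filter, 4 fell (Cd79a, Ighm and Pax5 among them) and none rose by edgeR, DESeq2 or limma-voom, with 0 higher and 6 lower at an unadjusted edgeR p under 0.05. Ighm lost its call in 7 of 17 alternatives, and its log2 change of -1.84 became -1.12 without WT replicate 5, while Cd79a and Pax5 kept theirs in each alternative that tested them. No B cell marker had 0 counts in every library. Their summed level was between 5.03 and 12.3 CPM (median 6.94) in Fbp1-deleted livers and between 11 and 46.7 CPM (median 20.8) in WT livers. In whole tissue, fewer cells of a type and less RNA per cell cannot be told apart.

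**Figure D2:**
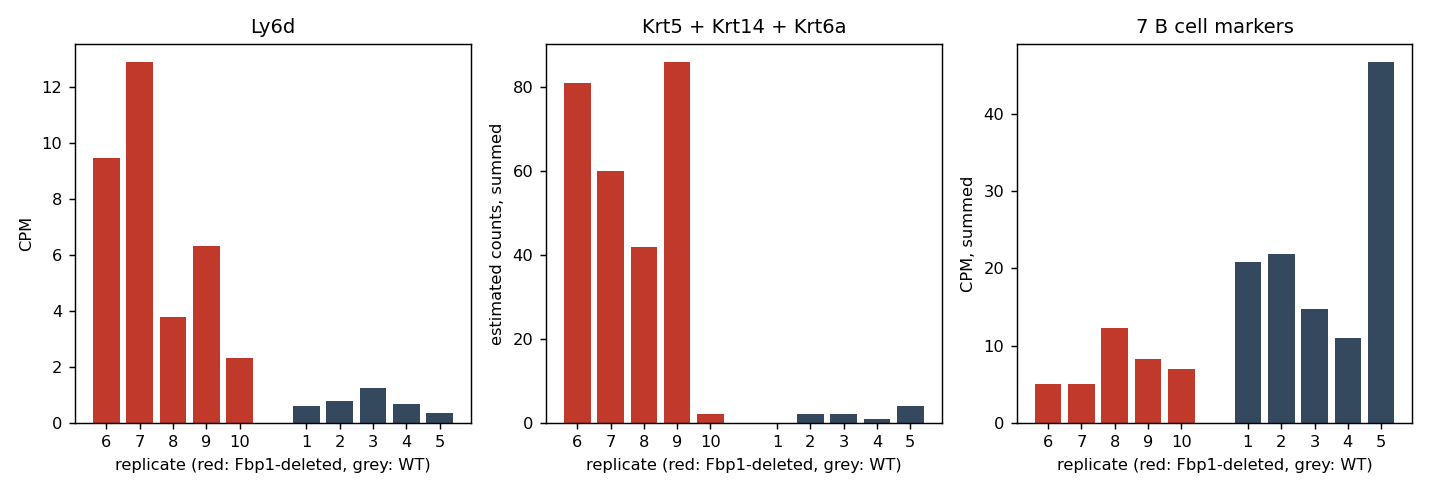
Bars give, for Fbp1-deleted replicates 6 to 10 (red, left) and WT replicates 1 to 5 (dark, right), the level of Ly6d in CPM, the summed estimated counts of the basal keratins Krt5, Krt14 and Krt6a, and the summed CPM of 7 B cell markers. Fbp1-deleted replicate 10 had 2 counts of these keratins, within the WT range of 0 to 4. Its Ly6d level of 2.31 CPM was the lowest of the Fbp1-deleted livers and above every WT liver.

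Of the other Ly6 family genes, 3 that lie on the same chromosome went the other way. Ly6a (Sca-1 of mouse stem and endothelial cells) averaged 4.02 ± 0.495 CPM in Fbp1-deleted livers and 7.80 ± 1.25 CPM in WT livers (SD, n = 5 each; log2 change -0.95, edgeR adjusted p = 0.00125). Ly6e fell by 0.66 on the log2 scale (adjusted p = 0.0024), and Ly6c2, a marker of monocytes, by 1.27 (adjusted p = 0.00325). Each of these 3 genes was lower in 5 of 5 Fbp1-deleted livers than in any WT liver. Ly6a and Ly6c2 have close copies in the genome, so the split of reads among them is uncertain. In the list of 26 Sox, glypican and Ly6 paralogs, 14 passed the filter, 4 fell (the above and Sox17) and 0 rose by edgeR, with 0 at an unadjusted p under 0.05, 0 by DESeq2 and limma-voom, and 1 without WT replicate 4. Sox17 lost its call in 9 of 17 alternatives. Leaving out Fbp1-deleted replicate 8 was among them, and there the number that fell was 3. The median log2 change of that list was -0.32.

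Sox4 (ENSMUSG00000076431.4, chr13:28948919-28953713, minus strand), a transcription factor that acts with SOX9 in mouse bile duct development, was the member that fell. It stood at 3.21, 2.62, 3.01, 1.09 and 2.59 CPM in Fbp1-deleted replicates 6 to 10, against 4.53, 4.25, 4.39, 4.81 and 4.99 CPM in WT replicates 1 to 5. All Fbp1-deleted livers were below all WT livers, with replicate 9 the lowest. The means were 2.50 ± 0.831 CPM in Fbp1-deleted livers and 4.59 ± 0.303 CPM in WT livers (SD, n = 5 each), a log2 change of -0.87 (SE 0.24, edgeR adjusted p = 0.0208; exact two-sided permutation p = 0.00794, the smallest possible). Without replicate 9 the log2 change was -0.68 (adjusted p = 0.0211), and without replicate 8 it was -0.94. WT livers were tightly grouped, with a coefficient of variation of 6.60% where counting error alone would give 10.4%. In the annotation 54.6% of the Sox4 exon bases lie opposite the noncoding gene Gm26735, which held 8 counts in Fbp1-deleted replicate 9, the library lowest for Sox4 with 18 counts, 5 in Fbp1-deleted replicate 6, 4 in WT replicate 3 and 0 in the others, and a library without strand cannot tell the pair apart. Beside the lower Sox4 stood the B cell markers given above and lower macrophage markers. Of 11 macrophage markers 10 were tested, 4 fell and 1, Cd9, rose. Of these only Lyz2 kept its call in all 17 alternatives, with Cd9 and Timd4 each losing it in 7, Csf1r in 5 and Cd5l in 4. The summed level of the list was between 217 and 299 CPM in Fbp1-deleted livers and between 294 and 381 CPM in WT livers. Of 5 endothelial markers 1, Lyve1, rose, with a summed level between 97.1 and 150 CPM in Fbp1-deleted livers and between 133 and 152 CPM in WT livers. Fbp1-deleted replicate 9, lowest for Sox4, was also the lowest library for this sum and for the sum of 9 erythroid markers (130 CPM). Among Fbp1-deleted livers it was lowest for the mesothelial sum (5.22 CPM) too. It was not the lowest of them for the B cell sum (8.31 CPM, Fbp1-deleted range 5.03 to 12.3) or the macrophage sum (224 CPM). Nor was it for the stellate cell (228 CPM) or pancreas (0.0607 CPM) sums. For the neutrophil and squamous sums (6.43 CPM each) replicate 9 was the highest of them. The part of the cells with these markers in the Sox4 difference was not tested.

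Sox9 (ENSMUSG00000000567.5, chr11:112782224-112787760, plus strand), the transcription factor of bile duct and ductal plate cells, was at 2.83, 4.07, 3.35, 2.49 and 2.04 CPM in Fbp1-deleted replicates 6 to 10 and at 3.54, 5.92, 4.66, 4.04 and 3.39 CPM in WT replicates 1 to 5. The groups overlapped, and replicate 7 was the highest Fbp1-deleted liver, above 3 of the WT livers. The log2 change was -0.55 (SE 0.23), with an adjusted p of 0.101 in edgeR and p = 0.0397 in the exact permutation test. Spp1 (ENSMUSG00000029304.14, chr5:104435118-104441050, plus strand), which encodes the secreted phosphoprotein osteopontin, was at 13.5, 12.6, 9.07, 7.71 and 7.27 CPM in Fbp1-deleted livers and at 18.7, 20.8, 14.7, 12.7 and 8.85 CPM in WT livers. WT replicates 4 and 5 lay inside the Fbp1-deleted range and the other 3 WT livers above it. Mean Spp1 levels were 10.03 ± 2.85 CPM in Fbp1-deleted livers and 15.15 ± 4.76 CPM in WT livers (SD, n = 5 each; log2 change -0.60, SE 0.24, edgeR adjusted p = 0.0984). Without WT replicate 5 the Spp1 log2 change was -0.75 and the adjusted p 0.0328, so that 1 library decides this call.

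Epcam (ENSMUSG00000045394.8, chr17:87635979-87651129, plus strand), an adhesion molecule of bile duct cells, was at 1.77, 1.62, 1.31, 1.40 and 0.441 CPM in Fbp1-deleted livers and at 1.53, 1.18, 1.73, 1.42 and 0.874 CPM in WT livers. The groups overlapped, and the lowest library was Fbp1-deleted replicate 10 with 8 counts. The log2 change was -0.04, with a 95% interval of -0.72 to 0.64 (edgeR adjusted p = 0.95), and its sign turned when Fbp1-deleted replicate 10, WT replicate 1 or WT replicate 3 was left out. Cd24a (ENSMUSG00000047139.9, chr10:43578284-43584265, plus strand), the mouse CD24 gene, was at 1.25, 1.34, 0.921, 1.46 and 1.38 CPM in Fbp1-deleted livers and at 1.08, 1.76, 1.30, 3.22 and 2.78 CPM in WT livers. WT replicates 1 and 3 lay inside the Fbp1-deleted range and the other 3 WT livers above it (log2 change -0.68, SE 0.32, edgeR adjusted p = 0.154). The Fbp1-deleted livers varied by 16.4%, under the 20.6% of counting error. CD24 is also carried by B cells and red cell precursors; besides the B cell markers given above, 9 erythroid markers summed to between 130 and 352 CPM in Fbp1-deleted livers and between 193 and 348 CPM in WT livers.

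Afp (ENSMUSG00000054932.6, chr5:90490737-90508907, plus strand) was at 2.25, 1.39, 1.70, 0.971 and 0.827 CPM in Fbp1-deleted livers and at 2.21, 3.23, 2.33, 1.37 and 3.81 CPM in WT livers. WT replicates 1 and 4 lay inside the Fbp1-deleted range and the other 3 WT livers above it. Means were 1.43 ± 0.575 CPM in Fbp1-deleted livers and 2.59 ± 0.948 CPM in WT livers (SD, n = 5 each), and the log2 change of -0.85 (SE 0.33) did not pass (edgeR adjusted p = 0.084; exact permutation p = 0.0635). Leaving out WT replicate 4 gave a log2 change of -1.01 and an adjusted p of 0.0378, again a call that rests on 1 library.

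Gpc3 (ENSMUSG00000055653.13, chrX:52272426-52613950, minus strand) was the other member besides Igf2 and Ly6d with a positive log2 change. It was at 1.20, 1.89, 1.70, 0.789 and 1.16 CPM in Fbp1-deleted livers and at 0.394, 0.245, 0.921, 1.04 and 0.874 CPM in WT livers. Only replicate 9 of the Fbp1-deleted livers lay inside the WT range. The log2 change was 0.97 (SE 0.40, edgeR adjusted p = 0.104; exact permutation p = 0.0397), on 13 to 35 counts in Fbp1-deleted livers and 6 to 19 counts in WT livers.

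H19 (ENSMUSG00000000031.16, chr7:142575529-142578143, minus strand) varied widely within both groups. It was at 1.20, 0.334, 1.75, 2.37 and 0.606 CPM in Fbp1-deleted livers and at 0.148, 1.55, 1.95, 4.81 and 2.93 CPM in WT livers. WT livers spanned the whole range of the Fbp1-deleted livers, with a coefficient of variation of 76.0% where counting error alone would give 15.0%. The log2 change was -0.86 with a 95% interval of -2.21 to 0.50 (edgeR adjusted p = 0.416). Its neighbour Igf2 (ENSMUSG00000048583.16, chr7:142650766-142666816, minus strand) was at 1.10, 1.34, 3.05, 1.21 and 1.16 CPM in Fbp1-deleted livers and at 0.0984, 1.10, 1.90, 2.13 and 1.18 CPM in WT livers. Replicate 8 stood high in the first group and WT replicate 1 low in the second. The log2 change of Igf2 was 0.31 (SE 0.54, edgeR adjusted p = 0.723) and -0.084 without replicate 8. WT replicate 1 was the lowest library for both H19 (3 counts, exact 95% Poisson interval 0.619 to 8.77) and Igf2 (2 counts, 0.242 to 7.22), intervals that cover counting error only. Igf2 shares 62.8% of its exon bases with the readthrough gene Gm49394, to which 9 counts were given in WT replicate 2 and 0 in all others.

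**Figure D3:**
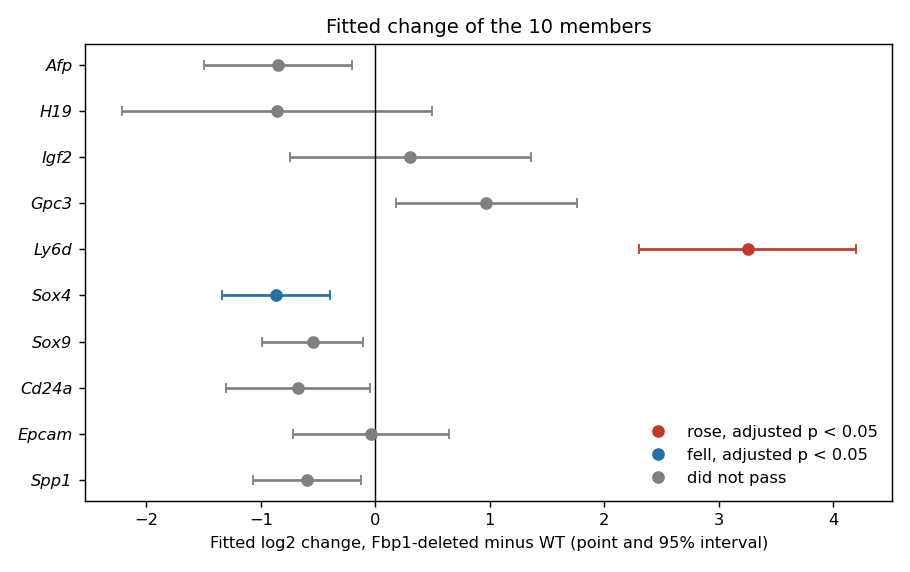
Fitted log2 change (Fbp1-deleted minus WT, horizontal axis) of each member from edgeR, with 95% intervals by a normal approximation. These are narrower than the F test allows: the Cd24a interval ends at -0.044, short of 0, though its unadjusted edgeR p was 0.0548. Ly6d at 3.25 (red) rose and Sox4 at -0.87 (blue) fell at an adjusted p under 0.05; the 8 members in grey did not pass.

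Levels can be set beside each other only per length; the values below take the deposited estimates as not yet adjusted for it, which no label states. As mean CPM per kilobase of annotated exon, Ly6d came first in Fbp1-deleted livers with 9.34 ± 5.76, followed by Spp1 with 6.09 ± 1.73, a gap smaller than the SD. The other 8 members lay between 0.275 (Igf2) and 0.714 (Sox9) in Fbp1-deleted livers, each within 1 SD of its neighbour in that order. In WT livers Spp1 came first with 9.19 ± 2.89, and 7 members from Sox9 (1.04) to Epcam (0.614) followed, Ly6d (0.975) among them, again each within 1 SD of the next. Gpc3 (0.258) and Igf2 (0.224) came last in WT livers, below Epcam by more than the SD.

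The members did not share 1 pattern among the livers of a genotype. Likeness was measured over the 10 libraries as the distance between profiles of log2(CPM + 1), centred within each genotype and scaled to unit length, so that 0 means the same pattern. Among pairs of members, Ly6d and Epcam were nearest (0.588), followed by H19 and Igf2 (0.736), H19 and Cd24a (0.806), and Sox9 and Spp1 (0.838). Among 12090 named genes, those nearest to Ly6d were Inhbe, which encodes a hepatic activin subunit (0.288), Mcrip2 (0.348) and Creld1 (0.358). Inhbe was at 92.8, 105, 64.6, 81.3 and 39.6 CPM in Fbp1-deleted replicates 6 to 10 and at 62.9, 68.1, 80.2, 60.4 and 60.0 CPM in WT replicates 1 to 5; like Ly6d it was highest in replicate 7 and lowest in replicate 10 of the Fbp1-deleted livers and highest in WT replicate 3. Nearest to Sox4 were Arhgap25, a regulator of Rac in blood cells (0.257), Ssbp3 (0.392) and Cyp4b1 (0.428). Arhgap25 was at 1.92, 1.34, 1.70, 0.182 and 1.71 CPM in Fbp1-deleted livers and at 1.67, 1.76, 2.06, 1.91 and 2.01 CPM in WT livers, so that it shared with Sox4 the low value of replicate 9. The nearest of many genes are near in part by the number compared, and these distances carry no test.

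Several factors known to act on the Afp gene differed between the genotypes. Of 14 repressors and activators of Afp, all tested, 4 fell and 1 rose, with a median log2 change of -0.23. Over all genes tested 20.6% were called, a share to set beside this count and those of the lists above and below. Foxa2, a forkhead factor of liver enhancers, averaged 7.64 ± 2.92 CPM in Fbp1-deleted livers and 33.4 ± 6.50 CPM in WT livers (SD, n = 5 each; log2 change -2.12, edgeR adjusted p = 0.000128). Cebpa, whose product binds sequences of the kind marked in the Afp promoter, fell by 0.67 (adjusted p = 0.0126) and the orphan receptor gene Nr2f2 by 0.66 (adjusted p = 0.00496) on the log2 scale. The single rise, Ctnnb1 (beta-catenin, log2 change 0.32, adjusted p = 0.0349), was lost in 10 of 17 alternative settings. Zfhx3 (ATBF1), a repressor of Afp, also fell (log2 change -0.35, adjusted p = 0.0244), was lower in 5 of 5 Fbp1-deleted livers than in any WT liver, and lost its call in 5 of 17 alternatives. The postnatal repressors Zhx2 and Zbtb20 did not pass: Zhx2 averaged 19.8 ± 1.92 CPM in Fbp1-deleted livers and 19.9 ± 5.14 CPM in WT livers (95% interval of the log2 change -0.32 to 0.30), and Zbtb20 had a log2 change of -0.20 (adjusted p = 0.24).

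**Figure D4:**
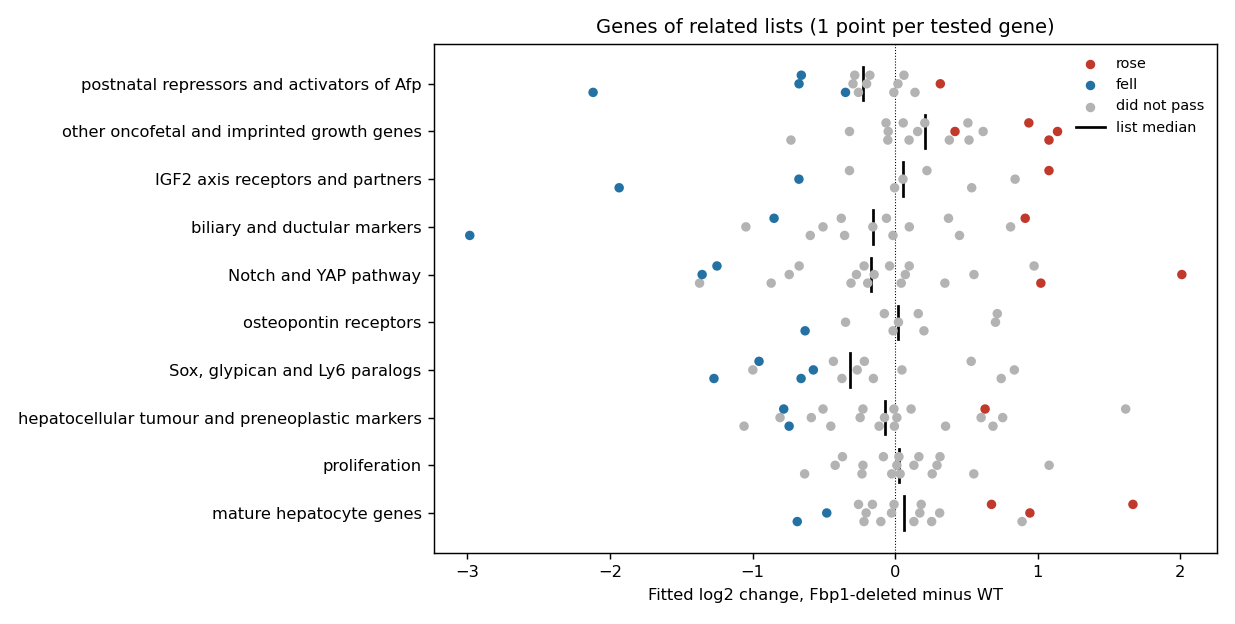
Fitted log2 change (Fbp1-deleted minus WT, horizontal axis) of each tested gene in 10 lists related to the members (rows), 1 point per gene, red where it rose, blue where it fell, grey where it did not pass, with a line at the list median. The largest fall is that of Onecut1 at -2.98 among biliary genes and the largest rise that of Tead1 at 2.01 in the Notch and YAP list. List medians lie between -0.32 and 0.21.

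Other genes of fetal growth were measured beside the imprinted members. Of 26 other oncofetal and imprinted genes 17 were tested, 4 rose and 0 fell by edgeR, where 20.6% of all genes tested were called. The median log2 change was 0.21. At an unadjusted edgeR p under 0.05 the number lower was 1. It was also 1 by DESeq2, and by edgeR with upper quartile factors, library totals, no filter or the stricter filter, and 0 by limma-voom. Leaving out Fbp1-deleted replicate 8, WT replicate 3 or WT replicate 4 gave 1 as well. Aldoa, the muscle-type aldolase that fetal liver and liver tumours express, averaged 224.9 ± 53.98 CPM in Fbp1-deleted livers and 117.4 ± 10.3 CPM in WT livers (SD, n = 5 each; log2 change 0.94, edgeR adjusted p = 0.000855). Igf2bp2, an RNA-binding protein of IGF2 transcripts, averaged 3.22 ± 0.766 CPM in Fbp1-deleted livers and 1.52 ± 0.353 CPM in WT livers (log2 change 1.08, adjusted p = 0.00745). The paternally expressed gene Peg3 rose by a log2 change of 1.14 (adjusted p = 0.0123); the fourth rise, Dcn, was lost in 10 of 17 alternatives. Dlk1, a surface marker of fetal hepatoblasts, was below the filter at 0.0922 CPM in Fbp1-deleted livers and 0.168 CPM in WT livers.

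Among genes around IGF2, 9 of 11 were tested, 1 rose (Igf2bp2) and 2 fell (Igfals and Igf1), with a median log2 change of 0.05. Igfals, the acid-labile subunit that keeps IGFs in the circulation, averaged 35.8 ± 13.2 CPM in Fbp1-deleted livers and 137.1 ± 39.3 CPM in WT livers (SD, n = 5 each; log2 change -1.94, edgeR adjusted p = 0.000704). Igf1 averaged 317.5 ± 44.5 CPM in Fbp1-deleted livers and 506.9 ± 78.9 CPM in WT livers (log2 change -0.68, adjusted p = 0.003). The receptors did not pass, with log2 changes of -0.0039 for Igf2r (95% interval -0.30 to 0.29) and 0.05 for Igf1r.

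Bile duct markers beside Sox9, Sox4 and Epcam did not move as 1 group. Of 25 genes found, 15 were tested, 2 fell and 1 rose, with a median log2 change of -0.16; without Fbp1-deleted replicate 8 the number that fell was 4. Onecut1 (HNF6), a factor of both hepatocytes and duct cells, averaged 5.23 ± 1.94 CPM in Fbp1-deleted livers and 41.5 ± 34.9 CPM in WT livers (SD, n = 5 each; log2 change -2.98, edgeR adjusted p = 0.00526). WT replicate 4 stood at 104 CPM against 23.4 to 30.4 CPM in the other WT livers, and without it the log2 change was -2.31. Cdh1, E-cadherin, rose (log2 change 0.91, adjusted p = 0.0204) and lost its call in 3 of 17 alternatives. The duct keratins gave a log2 change of 0.45 for Krt19 (adjusted p = 0.529) and 0.81 for Krt7 (adjusted p = 0.0896, called by limma-voom and without WT replicate 4). Krt19 also marks mesothelium, and the 6 mesothelial markers read here include Krt19 itself. Krt19 was at 0.728 to 1.62 CPM in Fbp1-deleted livers and at 0.245 to 1.34 CPM in WT livers. The 6 markers summed to between 5.22 and 22.4 CPM in Fbp1-deleted livers, highest in replicate 8. In WT livers the sum was between 4.33 and 7.65 CPM. Of the 5 mesothelial markers tested, Krt19 among them, edgeR called 0. At an unadjusted p under 0.05, by DESeq2 and by limma-voom, 1 was higher.

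The Notch and YAP pathways, which act upstream of Sox9 in liver cells, had 20 of 22 genes tested. Of these 2 were higher and 2 lower, where 20.6% of all genes tested were called, and the median log2 change was -0.17. The number lower was 4 without Fbp1-deleted replicate 8, without Fbp1-deleted replicate 10 or without WT replicate 4. The number higher was 3 without Fbp1-deleted replicate 8 or without Fbp1-deleted replicate 7. Hes1, a Notch target, averaged 3.93 ± 0.848 CPM in Fbp1-deleted livers and 9.36 ± 1.49 CPM in WT livers (SD, n = 5 each; log2 change -1.25, edgeR adjusted p = 0.000538). Amotl2, a YAP target, fell by 1.35 (adjusted p = 1.9e-05), whereas Ccn2, another YAP target, rose by a log2 change of 1.02 (adjusted p = 0.0167). Tead1, the DNA-binding partner of YAP, averaged 56.2 ± 18.3 CPM in Fbp1-deleted livers and 13.9 ± 2.15 CPM in WT livers (log2 change 2.01, adjusted p = 0.000242). Among 9 tested osteopontin receptors, 1 fell, the integrin gene Itga5 (log2 change -0.63, adjusted p = 0.0141), and 0 rose by edgeR (1 higher at an unadjusted p under 0.05, 1 by DESeq2, 0 by limma-voom, 1 without WT replicate 4). The number that fell was 2 without Fbp1-deleted replicate 10, with upper quartile factors or with library totals. Cd44 had a log2 change of 0.02 (adjusted p = 0.948).

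Of 24 other tumour and preneoplastic markers found, 21 were tested, 1 rose and 2 fell, with a median log2 change of -0.07. Anpep, a bile canalicular peptidase, fell by 0.78 (edgeR adjusted p = 0.00141), Aldh1a1, a retinal dehydrogenase, fell by 0.74 (adjusted p = 0.0126), and the rise of Thy1 (log2 change 0.63, adjusted p = 0.0389) was lost in 11 of 17 alternatives. Of 22 proliferation genes 17 were tested; over all libraries edgeR with its standard filter and TMM, and limma-voom, called 0 in either direction, DESeq2 called 1 higher and 1 lower, and at an unadjusted edgeR p under 0.05 the counts were 2 higher and 2 lower. Without Fbp1-deleted replicate 8 edgeR called 2 higher and 1 lower; without WT replicate 4 or with the stricter filter it called 1 higher, and without Fbp1-deleted replicate 9, without WT replicate 5, with upper quartile factors or with library totals 1 lower. Mki67, the proliferation marker Ki-67, averaged 1.84 ± 0.663 CPM in Fbp1-deleted livers and 1.81 ± 0.606 CPM in WT livers (SD, n = 5 each; log2 change 0.03, 95% interval -0.58 to 0.65). Of the 18 mature hepatocyte genes, 3 rose and 2 fell, where 20.6% of all genes tested were called. Their median log2 change was 0.06. Leaving out 1 library at a time gave 2 to 4 rises, with 4 without Fbp1-deleted replicate 8. Tat, tyrosine aminotransferase, rose by a log2 change of 1.67 (adjusted p = 0.00137), and Tdo2, tryptophan dioxygenase, by 0.95 (adjusted p = 0.000882), while Fah, the last enzyme of tyrosine breakdown, fell by 0.69 (adjusted p = 0.00131).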

How the data were processed

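Whole livers were profiled by mRNA sequencing without strand information, per the labels' protocols. CASAVA, Salmon and the build GRCm38 stand in the submitters' processing notes; the series' design text also describes STAR, featureCounts and DESeq2. The authors deposited estimated counts, a column for each liver with a row for each gene; 0 values were not whole, so nothing was rounded. Of its 53392 genes, 52175 matched GENCODE M21 by identifier and version, 1180 by identifier alone and 37 not at all. No 2 libraries of a group agreed within counting noise (smallest chi-square per degree of freedom 16.6).

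Groups and replicate numbers came from the sample titles. The groups share no numbers, so nothing was paired. The design text calls the samples biological replicates; no litter, batch or date is given in the sources used here. edgeR 4.0.16 in R 4.3.3 (filterByExpr, TMM, robust quasi-likelihood F test, ~ group) compared Fbp1-deleted with WT, with Benjamini-Hochberg adjustment over 15392 genes and a threshold of 0.05. The biological coefficient of variation was 0.235. Standard errors were derived from the log2 change and F. Single genes were also tested by exact permutation with a pseudocount of 1. Intervals cover counting error or the fit only. Salmon divides reads among similar transcripts by a model, which replicates do not show.

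The members and the lists were chosen with earlier results of these data known. Named besides the members were, of each list, the called genes with the 3 smallest adjusted p, the called gene with the smallest adjusted p in the opposite direction, and the partners Zhx2, Zbtb20, Igf2r, Igf1r, Cd44, Dlk1, Krt19, Krt7 and Mki67; Zfhx3, Timd4, Csf1r, Cd5l, Lyz2, Sox17, Dcn, Ccn2, Lyve1, Cd9, Krt17, Trp63 and Gm43449 were added after their values were seen, as was the sum of 3 keratins. A few genes chosen this way are not reported here. Alternatives were RLE factors, upper quartile scaling, library totals, no filter, a filter of 1 CPM in 5 libraries, DESeq2 1.42.0, limma-voom (limma 3.58.1), each library left out, and a pseudocount of 0.1 or none. The fit was tested on simulated data.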

Additional observations from a re-analysis of the deposited data

Results flagged for a closer look

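Of 20 groups of 5 libraries examined (10 members in each genotype), 1 held a library far from the others, where chance flags about 1 in 20. It was Igf2 in Fbp1-deleted livers: replicate 8 stood at 3.05 CPM, and the other 4 lay between 1.10 and 1.34 CPM. The gap to the nearest library took up 0.879 of the group's range, against a critical value of 0.71. In WT livers Igf2 ranged from 0.0984 to 2.13 CPM. The same library also had the highest summed level of mesothelial markers, 22.4 CPM, and the score nearest to WT on the first principal component; their part in the Igf2 value was not tested.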

How the results depend on the processing

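Over 17 alternatives Ly6d kept its rise (log2 change 2.91 to 3.52, edgeR, DESeq2 or limma-voom adjusted p 1.29e-11 to 0.00605) and Sox4 its fall (log2 change -0.97 to -0.68, adjusted p 0.00341 to 0.0472). Leaving out 1 library at a time, 1 member rose in each fit and 1 to 2 members fell, the second being Afp without WT replicate 4 and Spp1 without WT replicate 5. Signs turned for Igf2 (-0.084 without Fbp1-deleted replicate 8, range -0.084 to 0.56 over the libraries left out) and for Epcam (0.17 without Fbp1-deleted replicate 10, 0.0081 without WT replicate 1 and 0.065 without WT replicate 3, range -0.17 to 0.17); the cause was not tested. Over all genes 1636 rose and 1542 fell, with leave-one-out ranges of 1066 to 2060 and 1019 to 1858; the fewest came without Fbp1-deleted replicate 9 (1066 higher) and without Fbp1-deleted replicate 6 (1086 higher, 1019 lower), fits with fewer samples. Scaling moved the split of calls: 1266 higher and 1878 lower with upper quartile factors, and 1190 higher and 1965 lower with library totals, settings that shift the median change of all genes by -0.07 and -0.09. A member had between 2 and 509 counts in a library, and counting error limits the lowest of these. No paired analysis was possible because the groups share no replicate numbers.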

Other observations

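Besides Krt5, Krt14 and Krt6a, further genes of basal epidermis were looked at after the values of those 3 were seen. Krt17, a keratin of hair follicles and activated epidermis, had 13, 16, 7, 13 and 2 counts in Fbp1-deleted replicates 6 to 10 and 0, 0, 0, 1 and 0 counts in WT replicates 1 to 5 (adjusted p = 0.000107 in the edgeR fit with no filter). Trp63, the transcription factor of basal epithelial cells, had 7, 1, 4, 2 and 1 counts in Fbp1-deleted livers and 0, 1, 0, 0 and 0 counts in WT livers. It did not pass in that fit (edgeR adjusted p = 0.0786). Sfn, the stratifin gene, did not follow them, with 32, 23, 30, 18 and 14 counts in Fbp1-deleted livers and 28, 25, 24, 29 and 35 counts in WT livers.

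On the strand opposite to Afp, overlapping part of its span and reaching past its end, lies the noncoding gene Gm43449 (ENSMUSG00000106788.1, chr5:90499088-90515931, GRCm38), whose exons share 0 bases with those of Afp. It had 8, 3, 6, 3 and 6 counts in Fbp1-deleted replicates 6 to 10 and 28, 30, 17, 10 and 33 counts in WT replicates 1 to 5, so that every Fbp1-deleted liver lay below every WT liver (log2 change -2.05, SE 0.39, edgeR adjusted p = 0.00303). The library does not mark strand, so reads of the exon that lies within an Afp intron cannot be told apart from unspliced Afp RNA.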
